A study of Mus musculus with 10 samples.

Results

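The ileal bile acid handling genes studied here are Slc10a2, Fabp6, Slc51a, Slc51b, Nr1h4, Nr0b2 and Fgf15. They were selected on the measured values of these arrays, because Fabp6 had the largest positive difference of all genes between Flattop-labelled and Lgr5-high cells. The other symbols were added as parts of the same pathway. A gene was measured by the probe set annotated to its symbol alone, and where it had more than 1, by the one with the highest mean over 10 arrays. This gave values for 6 of the 7 genes, among 22180 genes in all. The only probe set of Slc51b is annotated to Rasl12 as well, so no value is given for Slc51b. The difference between the groups chose the genes, so it is given for them as a description, with no p.

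The arrays (MoGene-2_0-st) compared 2 sorted populations of mouse intestinal cells, all from animals aged 3 to 6 months. The Lgr5-high group (6 arrays) held stem cells sorted for strong Lgr5 and GFP, from C57BL/6J mice of genotype Lgr5-EGFP-IRES-creERT2. The Flattop group (4 arrays) held crypt cells labelled as Flattop-expressing, from FltpT2AiCre mice crossed with Gt(ROSA)26mTmG, on a strain background given as mixed C57BL/6J, CD1 and 129/SvJ. The study asked how Flattop-expressing crypt cells differ from Lgr5-high stem cells. A Cre reporter of this kind marks cells in which the Cre has been active and their descendants, and the sources used here do not give the gate of the sort, the part of the intestine taken or any pooling of animals. Group, genotype, reporter and strain coincide and cannot be told apart. The labels do not tie replicates to separate animals, so a p-value here reflects no more than the variation among these arrays, part or all of which may be technical.

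Bile acids are made in the liver, help to absorb fat in the small intestine and are recovered in its last segment, the ileum. The apical transporter ASBT (Slc10a2) takes them into the enterocyte, the ileal bile acid binding protein (Fabp6) carries them through the cytosol, and the paired transporter OSTα and OSTβ (Slc51a and Slc51b) lets them out on the blood side. Inside the cell they activate the nuclear receptor FXR (Nr1h4), which switches on Fabp6, both OST genes, the corepressor SHP (Nr0b2) and the hormone Fgf15, which travels to the liver and lowers bile acid synthesis. These genes are best known from mature ileal enterocytes of the villus, not from crypt base stem cells.

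FXR binds DNA beside its partner RXR at an inverted repeat of a hexamer with 1 base between the copies. The promoters of Fabp6 and Slc51a, the genes whose values parted the groups, are printed below because this element is known from FXR targets. The windows are the 250 bases before the RefSeq start (GRCm38.p6), 5′ to 3′ on the gene's own strand, which is the minus strand for both. That of Fabp6 is chr11:43601563-43601812 and that of Slc51a is chr16:32487880-32488129. Capitals mark matches to the inverted repeat with at most 2 mismatches in its 12 defined bases.
Fabp6: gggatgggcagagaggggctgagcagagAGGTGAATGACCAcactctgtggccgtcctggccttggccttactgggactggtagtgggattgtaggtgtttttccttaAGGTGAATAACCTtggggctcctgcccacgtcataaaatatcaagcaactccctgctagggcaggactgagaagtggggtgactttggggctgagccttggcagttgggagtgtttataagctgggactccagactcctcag
Slc51a: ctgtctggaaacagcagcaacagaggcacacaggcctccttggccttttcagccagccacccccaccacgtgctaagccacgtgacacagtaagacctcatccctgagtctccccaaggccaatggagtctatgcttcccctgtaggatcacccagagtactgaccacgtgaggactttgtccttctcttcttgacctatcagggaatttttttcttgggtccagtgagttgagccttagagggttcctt

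The repeat searched was AGGTCANTGACCT, which reads the same on both strands, in windows from 250 bases before to 50 after each start. Of the 7 genes, 6 have an entry in the RefSeq promoter table. The Fabp6 promoter held 2 matches with 2 mismatches each, beginning 222 and 142 bases before the start. At least 1 such match stood in 374 of 32841 promoters (1.14%), and 2 or more in 4 (0.0122%). Both counts include Fabp6 itself, and the count for 2 or more was not planned beforehand. Neither is a test of Fabp6. The closest matches at the other genes had more mismatches, shown here by gene.
Slc51a: AGGACTTTGTCCT
Slc51b: GGGTCATTCACCC
Slc10a2: AGTTCATTATCAT
Those of Slc51a and Slc51b had 3 mismatches, a closeness reached by 11.4% of promoters, and that of Slc10a2 had 4, reached by 56.4%. Nr0b2 and the listed Nr1h4 start, which lies inside the gene's span, also came no closer than 4. The exact hexamer AGGTCA, on either strand, stood in the windows of Slc51a, Slc51b and Nr1h4 and in 16.3% of all promoters. The hexamer after TCA, a form bound by the receptor LRH-1, was in none of the 6 windows and in 0.423% of all promoters. These matches describe letters in a short window and do not show binding.

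**Figure D1:**
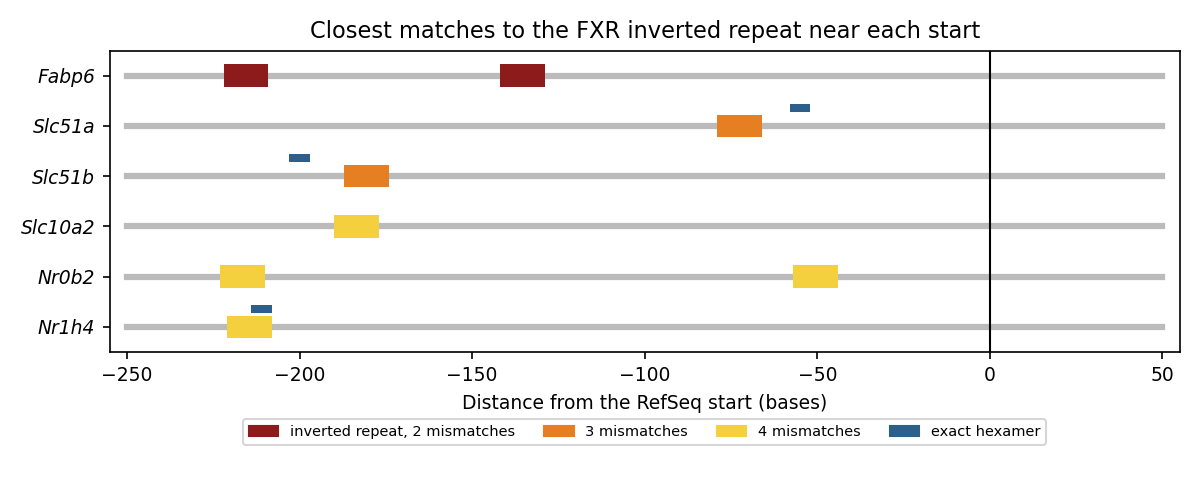
Closest matches to the inverted repeat of the nuclear receptor hexamer (bars coloured by mismatches) and exact hexamers (small blue bars) in the promoters of 6 genes, by distance in bases from the RefSeq start. Fabp6 holds 2 matches with 2 mismatches, while the closest matches of the other genes have 3 or 4.

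All values are log2 intensities, so a difference of 1 is a doubling, and levels are compared between arrays for a gene, not between genes. Medians over all genes lay between 4.87 and 5.02 on the 10 arrays, which serves as a mark of dim signal because detection calls were not analysed here. Epithelial markers (8 genes) were present in both groups, with list means of 9.61 to 10.43 on Flattop and 9.68 to 10.08 on Lgr5-high arrays. The 8 crypt base stem cell markers had list means of 8.01 to 9.39 on Flattop and 9.24 to 9.68 on Lgr5-high arrays. Over all genes, 200 of 22180 (0.902%) were called higher in Flattop and 3 (0.0135%) lower by limma at an adjusted p under 0.05, and the median difference was -0.064. In 2.01% of genes every Flattop array lay above every Lgr5-high array.

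Fabp6 and Slc51a were far higher in Flattop cells, whereas Slc10a2, Nr1h4, Nr0b2 and Fgf15 overlapped between the groups. By limma 2 of the 6 genes passed the threshold as higher and 0 as lower. This count is no test, as Fabp6 was chosen on this contrast and the genes were listed with earlier results known.

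Slc10a2 encodes the transporter for uptake from the gut lumen. Flattop replicates 1 to 4 read 3.98, 3.76, 4.81 and 3.70, and Lgr5-high arrays ran from 3.61 through a median of 3.88 to 4.12. The groups overlapped, every array lay under the median of all genes, and Flattop replicate 3 was the highest of the 10. The difference, Flattop minus Lgr5-high, was 0.20 (SE 0.22), with a 95% interval of -0.27 to 0.68.

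Fabp6 encodes the cytosolic carrier that binds bile acids inside the enterocyte. Flattop replicates 1 to 4 read 12.45, 12.45, 12.34 and 11.75, and Lgr5-high arrays ran from 4.06 through a median of 4.71 to 7.83. The groups were 3.92 apart at their nearest arrays. The means were 12.25 ± 0.34 (SD, n = 4) and 5.15 ± 1.39 (SD, n = 6), a difference of 7.10 (SE 0.63), which is 137-fold on the intensity scale. This was the largest positive difference among the 22180 genes, and was the reason for the choice. The size is uncertain, since 4 of the 6 Lgr5-high arrays lay under the median of all genes.

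Within the Lgr5-high group 1 array carried most of the spread of Fabp6. Replicate 4 read 7.83, and the other 5 lay between 4.06 and 5.32 with a mean of 4.61 ± 0.51 (SD, n = 5). Without replicate 4 the difference between the groups was 7.63. Slc51a read 5.30 in replicate 4, inside the range of the other Lgr5-high arrays, and Slc10a2 read 4.12, which was 0.13 above the next. In that array the list means were 7.16 for enterocyte markers and 4.59 for lymphocyte markers, inside the range of the other Lgr5-high arrays for both. The part of other cells in the high Fabp6 value was not tested. Some 16 genes stood more than 2 above all other Lgr5-high arrays in replicate 4, against 13 to 36 such genes in each of the other 5 arrays.

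Slc51a encodes the α subunit of the transporter that exports bile acids toward the blood. Flattop replicates 1 to 4 read 8.93, 9.68, 7.61 and 9.40, and Lgr5-high arrays ran from 4.69 through a median of 5.28 to 5.72. The groups did not overlap, with a gap of 1.89 between the lowest Flattop array, replicate 3, and the highest Lgr5-high array. The means were 8.91 ± 0.91 (SD, n = 4) and 5.23 ± 0.33 (SD, n = 6), a difference of 3.67 (SE 0.36) or 12.8-fold. It ranked 41 among all positive differences. On Lgr5-high arrays Slc51a lay near the median of all genes, above it on 5 of 6 and above the upper quartile on 0. The size of the 12.8-fold difference is therefore uncertain as well. Slc51b, which encodes the partner subunit needed for transport, is the gene left without a value.

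Nr1h4 encodes the bile acid receptor FXR. Flattop replicates 1 to 4 read 5.87, 6.34, 4.34 and 4.88, and Lgr5-high arrays ran from 4.86 through a median of 5.28 to 6.09. Replicates 1 and 2 of Flattop were high and replicates 3 and 4 low, so that the Flattop arrays lay on either side of most Lgr5-high arrays. The difference between group means was 0.0083 (SE 0.37), with a 95% interval of -0.82 to 0.84. Nr1h4 lay above the median of all genes on 2 of 4 Flattop and 5 of 6 Lgr5-high arrays, and above the upper quartile on 0.

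Nr0b2 encodes SHP, a corepressor induced by FXR. Flattop replicates 1 to 4 read 4.28, 4.10, 3.86 and 4.23, and Lgr5-high arrays ran from 3.87 through a median of 4.23 to 5.03. All 4 Flattop arrays lay under the median of all genes and inside or just below the Lgr5-high range. The difference was -0.21 (SE 0.22), with a 95% interval of -0.70 to 0.28.

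Fgf15 encodes the enterocyte hormone that signals to the liver. Flattop replicates 1 to 4 read 4.96, 4.88, 4.92 and 4.41, and Lgr5-high arrays ran from 4.63 through a median of 4.80 to 5.15. The groups overlapped, and Flattop replicate 4 was the lowest of all 10 arrays. The signal was dim, with 2 of 4 Flattop and 2 of 6 Lgr5-high arrays above the median of all genes. The difference was -0.055 (SE 0.15), with a 95% interval of -0.39 to 0.28. A second Fgf15 probe set gave -0.19, also with overlapping groups, and lay under the median of all genes on every array. The intervals of Slc10a2, Nr0b2, Fgf15 and Nr1h4 all ended below 1 on the log2 scale. This is a description and does not exclude a doubling. The signal of Slc10a2, Nr0b2 and Fgf15 was dim, and that of Nr1h4 lay near the median of all genes.

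**Figure D2:**
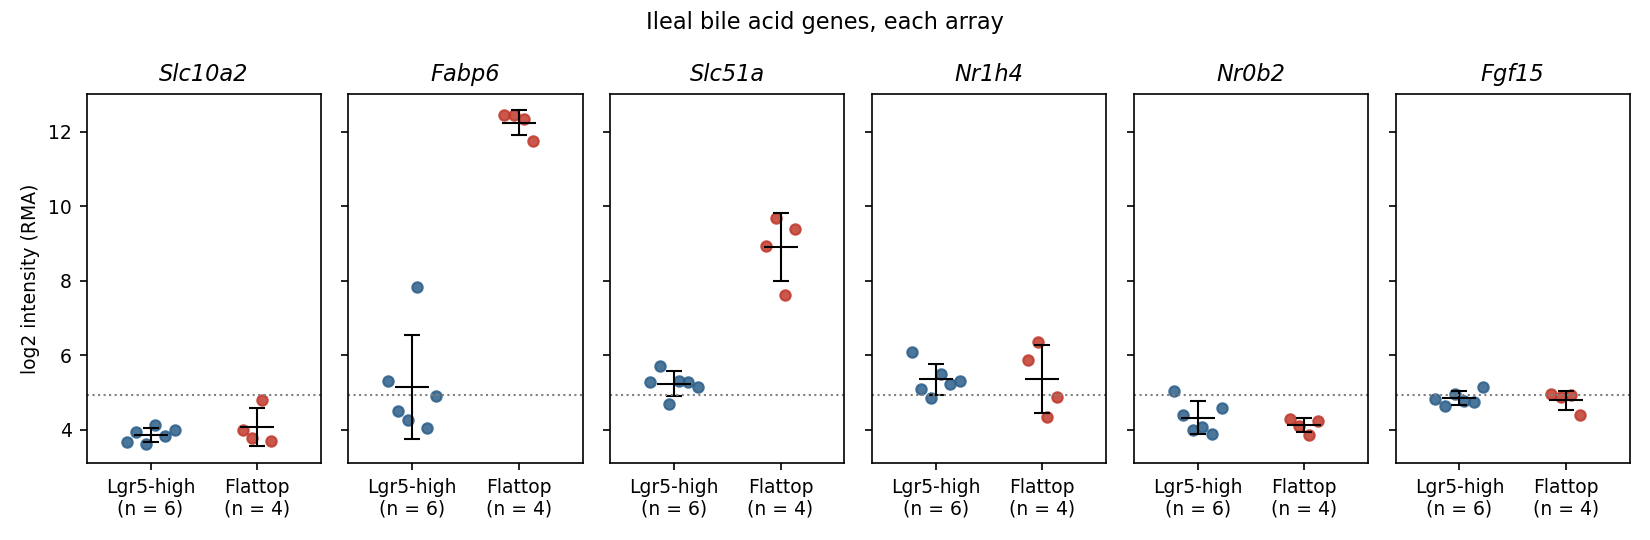
Log2 intensity of 6 ileal bile acid genes on each of 6 Lgr5-high (blue) and 4 Flattop (red) arrays, with mean and SD in black and the median of all genes as a dotted line. The Flattop points of Fabp6 (11.75 to 12.45) and Slc51a (7.61 to 9.68) lie above all Lgr5-high points, and the points of the other 4 genes overlap.

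The sample titles carry numbers in 2 ranges, 1 to 8 and 38 to 46, each with 2 Flattop and 3 Lgr5-high arrays, and the labels do not say what the numbers mark. Fabp6 differed between the groups by 7.75 in the first range and by 6.44 in the second, and Slc51a by 4.08 and 3.27. For Nr1h4 the values were 0.76 and -0.74. Comparisons between the ranges did not use the contrast that chose the genes, and they were tested in limma over all genes. Within Flattop, Nr1h4 in titles 38 to 46 minus titles 1 to 8 was -1.50 (SE 0.39, adjusted p = 0.231), which did not pass. Of all genes, 15 (0.0676%) passed that comparison, and 0 of the 6 did. Slc51a differed by -0.80 (SE 0.55, adjusted p = 0.579) and Fabp6 by -0.41 (adjusted p = 0.887) between the same arrays, and without Flattop replicate 3 the Slc51a value was 0.097. Within Lgr5-high, 0% of genes passed in limma (0 of 22180, with 1074 at an unadjusted p under 0.05, 0 of them among the 6). The value for Fabp6 was 0.90 (SE 0.82, adjusted p = 0.9997) with replicate 4 and -0.21 without it. The interaction, which asks whether the group difference itself differed between the ranges, passed for 2 genes of all (0.00902%) and for 0 of the 6. It was -1.50 for Nr1h4 (SE 0.50, adjusted p = 0.568), -1.31 for Fabp6 (SE 1.29, adjusted p = 0.807, and -0.19 without Lgr5-high replicate 4) and -0.80 for Slc51a (SE 0.71, adjusted p = 0.784). Lymphocyte markers had means of 8.31 and 8.81 in Flattop replicates 1 and 2 and of 10.54 and 9.93 in replicates 3 and 4. Between the same arrays stem cell markers had 9.14 and 9.39 against 8.01 and 8.52. Epithelial markers had 10.43 and 10.21 against 9.61 and 10.17, and enterocyte markers 9.80 and 10.02 against 9.15 and 10.41. The part of any of these cell types in the Nr1h4 values was not tested.

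Other genes of bile acid biology were taken from 5 lists. Receptors and their partners did not pass in either direction, 0 of 10 measured genes. Their median difference was 0.01, against -0.064 over all genes. The xenobiotic receptor CAR (Nr1i3) had the smallest p of the list, at 6.75 ± 0.67 (SD, n = 4) against 5.42 ± 0.38 (SD, n = 6), a difference of 1.33 (limma adjusted p = 0.0823). The bile acid receptors Vdr and Gpbar1 were at -0.39 and -0.27, and the nuclear receptor coactivator Ncoa1 at 0.57 (limma adjusted p = 0.507, 0.586 and 0.612). Among 12 measured transcription factors known to act on promoters of these genes 1 rose, and the median was 0.01. It was Maf, a basic leucine zipper factor, which is also expressed in T cells, at 8.54 ± 0.84 (SD, n = 4) against 4.09 ± 0.66 (SD, n = 6), a rise of 4.45 (SE 0.42, limma adjusted p = 0.000405). A second Maf probe set differed by only 0.69 (limma adjusted p = 0.0581 when used in its place), and within titles 1 to 8 the value of 4.52 missed the threshold (adjusted p = 0.140). The intestinal regulators Hnf4g (1.53), Hnf4a (-0.37) and Cdx1 (0.20) did not pass (limma adjusted p = 0.272, 0.481 and 0.812).

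Of 11 other bile acid and sterol transporters 1 rose, Npc1l1, which takes up cholesterol from the lumen. Flattop cells stood at 9.18 ± 0.70 (SD, n = 4) against 7.19 ± 0.35 (SD, n = 6), a difference of 1.99 (SE 0.30, limma adjusted p = 0.00994). It missed the threshold within either title range (2.26 with adjusted p = 0.0878 and 1.72 with adjusted p = 0.326). The list median was 0.31. It was 0.71 without Flattop replicate 3, 0.70 without dim genes, 0.72 within titles 1 to 8 and 0.58 within titles 38 to 46. The sterol exporter Abcg5 (0.85) and the efflux pumps Abcb1a (1.18), Abcc3 (0.70) and Abcc2 (1.15) were at limma adjusted p of 0.183 to 0.472. Of 7 measured genes reported to respond to FXR in the intestine 1 rose, the cytokine Il18, by 2.52 (SE 0.44, limma adjusted p = 0.0232). Flattop cells stood at 6.31 ± 1.20 (SD, n = 4) against 3.80 ± 0.26 (SD, n = 6). It missed the threshold in 7 of the 10 fits that left out 1 array (the largest adjusted p, 0.0835, without Flattop replicate 2), and within titles 38 to 46 (1.79, adjusted p = 0.472). Cyp3a11, a detoxifying enzyme, was at 0.68, the nitric oxide synthase Nos2 at -0.42 and the carbonic anhydrase Car12 at -0.86 (limma adjusted p = 0.212, 0.472 and 0.610). The median of this list was 0.12, and -0.32 with dim genes left out. None of the 13 genes of bile acid synthesis and uptake in the liver passed limma in either direction, nor did any at an unadjusted p under 0.05 (0 of 13). Cyp7a1, the rate-limiting enzyme of synthesis, stood at 3.11 in Flattop and 3.31 in Lgr5-high arrays, among the dimmest values. Hepatocyte markers gave 0 of 7 past the threshold, with list means of 5.11 to 5.33 on Flattop and 5.10 to 5.62 on Lgr5-high arrays.

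Some genes typical of the distal and some of the proximal small intestine rose in Flattop cells. Of 12 ileal genes other than those above 4 rose, 11 differences were positive and the median was 1.06. It was 1.47 without dim genes and 0.78 without Flattop replicate 4. The C-type lectin Clec2h rose by 4.99 (SE 0.26, limma adjusted p = 1.13e-05) and passed in all 21 alternative fits. Flattop cells stood at 9.92 ± 0.56 (SD, n = 4) against 4.93 ± 0.36 (SD, n = 6). The peptide guanylin (Guca2a) rose by 1.47, the amino acid transporter Slc7a9 by 1.88 and proglucagon (Gcg) by 1.93 (limma adjusted p = 0.0136, 0.0150 and 0.0355). Guca2a and Slc7a9 missed the threshold without Flattop replicate 2 (limma adjusted p = 0.0548 and 0.0642), and Gcg in 7 of the 10 fits that left out 1 array (up to 0.109, without Flattop replicate 2). Within titles 38 to 46 these 3 genes missed it too (limma adjusted p = 0.388, 0.326 and 0.255), and within titles 1 to 8 Guca2a (0.0753) and Gcg (0.0512) did. The vitamin B12 receptor Cubn (1.37), neurotensin (Nts, 2.82), the protease Mep1a (0.74) and Tmigd1 (0.23) did not pass (limma adjusted p from 0.0907 to 0.669). Nts had an SD of 2.21 in the Flattop arrays. Gcg and Nts are products of enteroendocrine cells, of whose 6 markers 4 rose, with list means of 9.22 to 9.56 on Flattop and 7.28 to 8.001 on Lgr5-high arrays, and their part in both genes was not tested.

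Of 14 measured proximal genes 3 rose and 0 fell, with a median of 1.12. They were the retinol binding protein Rbp2 (4.15, SE 0.50), the apolipoprotein Apoa4 (3.29, SE 0.30) and the peptidase Ace (2.76, SE 0.41), with limma adjusted p of 0.00262, 0.000378 and 0.0101. A second Rbp2 probe set gave 4.77. Within title ranges Rbp2 and Ace missed the threshold in both (limma adjusted p from 0.0700 to 0.282) and Apoa4 in titles 38 to 46 (0.119). The fatty acid binding protein Fabp1 (3.47), lactase (Lct, 2.46), ketohexokinase (Khk, 1.004) and Adh6a (1.15) did not pass (limma adjusted p from 0.0588 to 0.266), though their groups did not overlap. Of 8 colon genes 0 passed in either direction, with a median of -0.052, and Mptx1, at 3.52 (SE 0.72, limma adjusted p = 0.0551), was the nearest to the threshold. Over the 8 lists 10 of 86 measured genes rose and 0 fell. Leaving out Flattop replicate 2 gave 6, and titles 1 to 8 alone and titles 38 to 46 alone gave 4 and 2. The lists of regions overlap with the enterocyte list in Apoa4 and Fabp1. That list had a median difference of 2.50, above those of the ileal and proximal lists.

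**Figure D3:**
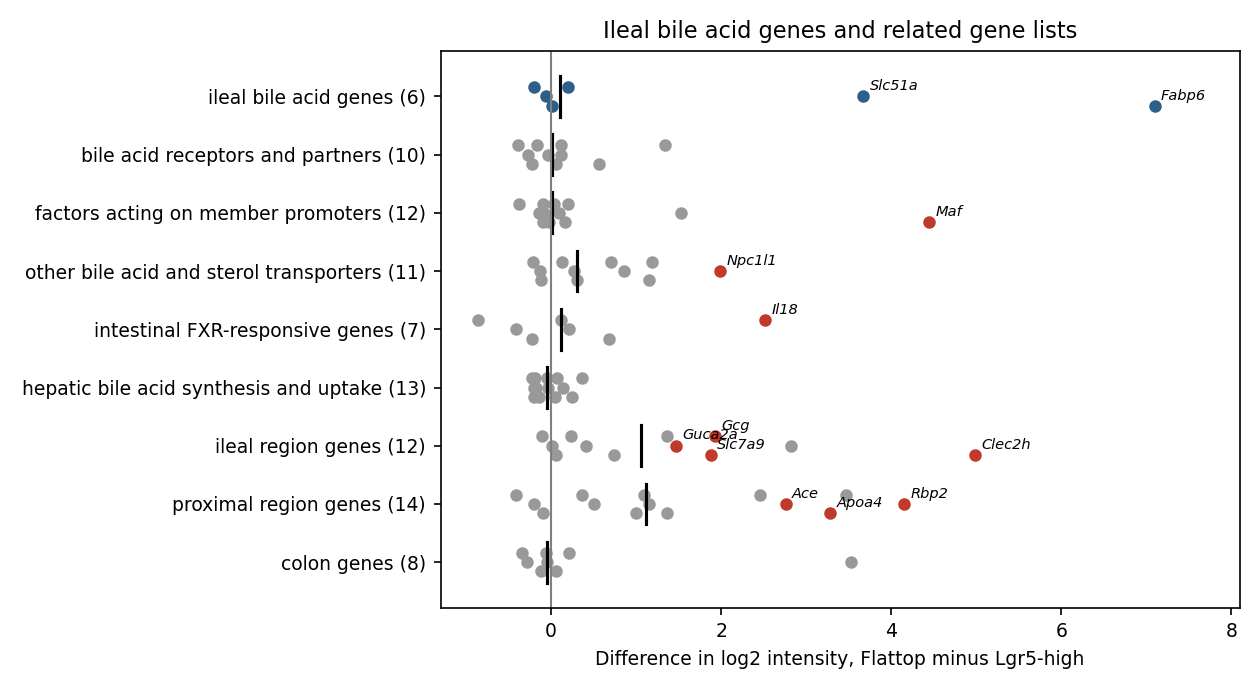
Difference in log2 intensity, Flattop minus Lgr5-high, of the 6 ileal bile acid genes and of 8 lists of related genes (number measured in brackets). The 6 genes are blue and not coloured by call, as this contrast was used to choose them. In the lists, red points are past a limma adjusted p of 0.05 and grey points are not. Black bars mark medians. Fabp6 (7.10) and Slc51a (3.67) stand apart from the other 4 bile acid genes, and ileal and proximal lists have medians of 1.06 and 1.12.

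Enterocyte and lymphocyte markers moved with the same contrast. Of 12 enterocyte markers 8 rose, all 12 differences were positive and the median was 2.50. Their list means were 9.15 to 10.41 on Flattop and 6.83 to 7.62 on Lgr5-high arrays. Of 11 lymphocyte markers 10 rose, with list means of 8.31 to 10.54 and 4.41 to 4.85. None of them can be said to be at 0, as a log2 intensity has no zero. Stromal markers gave 0 of 7 past the threshold in limma (0 at an unadjusted p under 0.05), with list means of 4.34 to 4.54 and 4.30 to 4.69. Of 9 genes induced by tissue dissociation 0 passed in limma (1 at an unadjusted p under 0.05), with list means of 7.61 to 8.20 and 6.38 to 8.52. Among Flattop arrays, replicate 3 had the lowest Slc51a value (7.61), the lowest enterocyte mean (9.15), the lowest stem cell mean (8.01) and the highest lymphocyte mean (10.54). Fabp6 was lowest in replicate 4 (11.75), whose enterocyte mean was the highest (10.41). In these bulk samples fewer cells of a type and less RNA per cell cannot be told apart, and the part of either cell type in the values of Fabp6 and Slc51a was not tested.

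**Figure D4:**
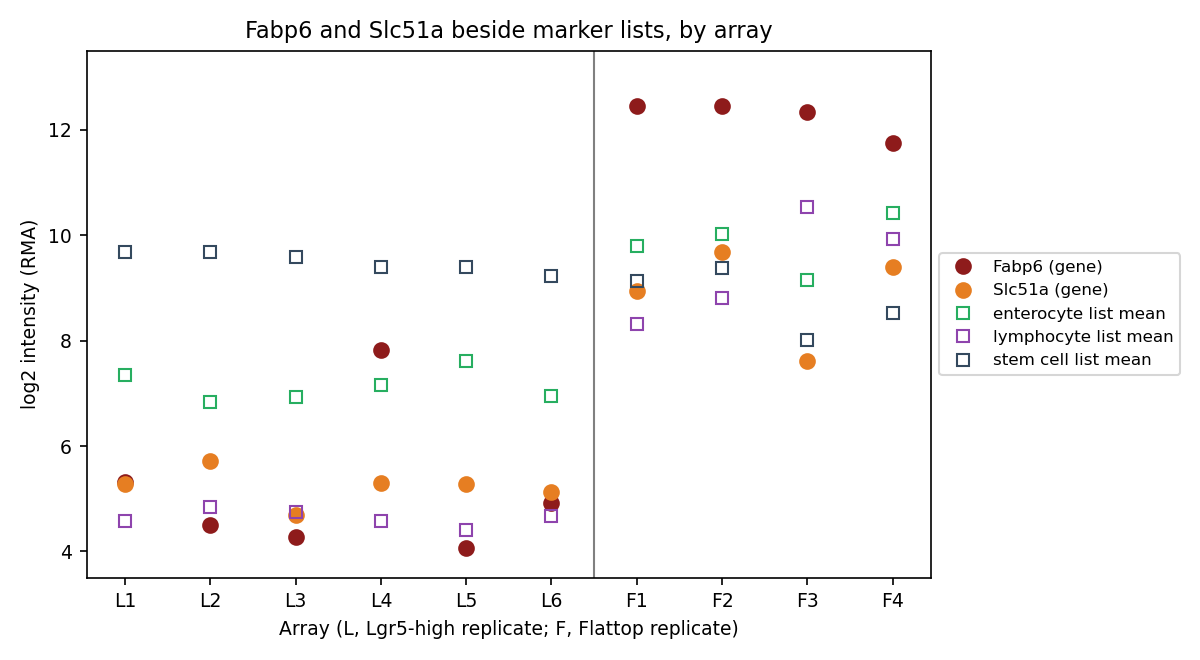
Log2 intensity of Fabp6 and Slc51a (filled circles) and mean log2 intensity of enterocyte, lymphocyte and stem cell marker lists (open squares) on each array, Lgr5-high replicates L1 to L6 and Flattop replicates F1 to F4. Fabp6 at 7.83 in L4 stands above the other Lgr5-high arrays, while the marker lists of L4 do not.

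The genes with patterns most like each of the 6 were found by the root mean square difference of centred log2 values over 10 arrays, in which the group difference weighs most. For Fabp6 they were the chemokine Ccl5 (1.09), the T cell receptor component Cd3g (1.19), the mast cell protease Mcpt1 (1.30), the granzyme Gzma (1.34), the chemokine Xcl1 (1.48) and Clec2h (1.48), the last a member of the ileal list. None of them had an Lgr5-high replicate 4 that stood out as that of Fabp6 did. Over the 6 Lgr5-high arrays alone the nearest were Them4 (0.37), Foxj2 (0.42), Tmem223 (0.47), Glt8d1 (0.51), Zfp599 (0.52) and Golga7 (0.53), all of them highest in replicate 4. With so few arrays near matches are easily found. Highest or lowest arrays shared with a gene, here and below, follow largely from how its like genes were picked. For Slc51a the nearest over 10 arrays were the lectin Reg4 (0.49), the aminopeptidase Enpep (0.57) and Chp2 (0.57), each lowest among Flattop arrays in replicate 3, as Slc51a was. For Nr1h4 they were Rnf128 (0.21), Abhd17c (0.23) and Usp8 (0.24), each higher in Flattop replicates 1 and 2 than in 3 and 4. For Slc10a2 they were Cacna2d1 (0.12), Ly6g6g (0.13) and Ssxb7 (0.13), each with its highest value in Flattop replicate 3. For Nr0b2 they were Cd59b (0.15), Ppid (0.16) and Akap17b (0.19), and for Fgf15 Zc3h15 (0.11), Hbq1a (0.11) and Frmd3 (0.11).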

How the data were processed

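RNA of sorted cells had been amplified and hybridised to 10 arrays. The authors deposited 1 log2 intensity for each probe set and array, made with RMA in oligo 1.38.0 per the submitters' processing notes. Scanner files were not used here. Precision is limited by how few arrays there are. Of 41345 probe sets, 23521 had 1 gene symbol in the platform annotation, 1814 had several and were left out, and 16010 were unlisted. Entrez numbers of 23328 matched RefSeq (GRCm38.p6).

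Groups were taken from the labels. Differences, SE and adjusted p came from limma 3.58.1 in R 4.3.3 (two-sided, Benjamini-Hochberg over all 22180 genes, threshold 0.05), with no filter on dim genes. A fit with 4 cells (group by title range) gave the range comparisons and the interaction. The 95% intervals are limma's. The fits were tested on simulated data. The genes, lists and tests were chosen with earlier results of these data known. Named genes were the 7, each list's genes past the threshold and up to 4 others of smallest p, and the 6 or 3 genes most like each one. No 2 arrays were identical (0 pairs). Deviations of same-numbered replicates of the groups correlated at 0.30, -0.21, -0.010 and 0.029 for replicates 1 to 4, with no common direction. Alternatives were another normalisation, centring, filter, variance prior, array weights, blocks, title ranges alone, other probe sets and each array left out. Plots used matplotlib 3.10.9.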

Additional observations from a re-analysis of the deposited data

Results flagged for a closer look

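Values were compared within each group of 4 or 6 arrays for the gap between an end array and its nearest neighbour, relative to the group's range. By this measure chance sets apart about 1 group in 20, and 12 groups were examined. Fabp6 in Lgr5-high replicate 4, at 7.83, lay 2.51 above the next array of a range of 3.77. Fabp6 in Flattop replicate 4, at 11.75, lay 0.59 below the next of a range of 0.70. Fgf15 in Flattop replicate 4, at 4.41, lay 0.48 below the next of a range of 0.55.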

How the results depend on the processing

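Over the 21 alternatives the difference lay between 6.44 and 7.75 for Fabp6 and between 3.27 and 4.11 for Slc51a. The choice fixes the direction of Fabp6, and the genes were listed with earlier results known, so neither range is a sign of stability. Within titles 38 to 46 alone, 0 of the 6 genes passed the threshold. Slc10a2 and Nr0b2 fell to the filter on dim genes and have no value there. Nr1h4 went to 0.76 within titles 1 to 8 and -0.74 within titles 38 to 46; the other bile acid genes moved by less than their SD. The replicate numbers pair no samples known to be related. With a replicate block 57 genes rose, 0 fell and 4 list genes rose, and no call among the 6 changed. Genes called higher numbered 77 and 75 within the title ranges (0 and 10 lower), and 118 to 211 with 1 array left out (lowest without Flattop replicate 2, and 130 without Lgr5-high replicate 4). Lower calls were 7 after a second quantile normalisation, 6 with the title block, 6 over all probe sets, 19 at an adjusted p of 0.1, and 1 to 5 with 1 array left out. List genes called higher were 4 and 2 within the title ranges and 6 to 12 with 1 array left out. With 1 array left out, the Flattop title ranges gave 3 to 171 calls, those of Lgr5-high gave 0 to 1, and the interaction gave 0 to 38. The 171 and the 38 came without Flattop replicate 4, which leaves a lone array assumed to vary like the rest. The interaction gave 4 calls with a trended and robust prior. Some values between title ranges turned sign. With 1 array left out, they ran from -0.21 to 1.67 for Fabp6, -0.27 to 0.25 for Slc51a and -0.24 to 0.37 for Nr1h4 within Lgr5-high, and from -1.69 to 0.097 within Flattop and -1.70 to 0.091 in the interaction for Slc51a. After centring, the Lgr5-high values were -0.031 for Nr1h4 and -0.026 for Slc51a, and after quantile normalisation -0.041 for Slc51a. The causes were not tested. Dim signal limits Slc10a2, Nr0b2, Fgf15 and the Lgr5-high level of Fabp6. Signal near the median of all genes limits Nr1h4 and the Lgr5-high level of Slc51a.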
